A study of Mus musculus with 6 samples.

Results

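AP-1 (activator protein 1) is a family of paired transcription factors, and 10 of its genes were followed here in ischemic mouse muscle, *Fos*, *Fosb*, *Fosl1* and *Fosl2* of the Fos family, *Jun*, *Junb* and *Jund* of the Jun family, and the related *Atf3*, *Batf* and *Maff*. The genes were chosen by name, and their estimated read counts were summed over the listed transcripts of each Entrez gene, 10 genes of 18089 in all. Bulk RNA of the ischemic gastrocnemius came from 3 wild-type (WT) and 3 GPR174-KO mice of the C57BL/6 strain, male and 8 to 10 weeks old, 7 days after hindlimb ischemia (HLI), in which the left femoral artery is tied off and a segment removed. GPR174-KO mice are hemizygous for a deleted X-linked receptor gene (Gpr174-/Y), with no Cre or cell type named that would limit the loss to one lineage, and both groups had the same operation. Values of a group are given in the order of its replicates, 1 to 3. The comparison asks which transcripts differ with genotype in muscle at that time, and no uninjured muscle was analysed here. *Gpr174* itself had 8, 2 and 5 counts in the WT libraries and 1, 0 and 0 in the GPR174-KO libraries.

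A Fos protein cannot pair with itself and must join a Jun protein, whereas Jun proteins pair with one another as well. Such pairs bind DNA through a basic region next to a leucine zipper (bZIP), at the TPA response element (TRE) and, for some pairs, at the cyclic AMP response element (CRE). *Fos*, *Fosb*, *Jun*, *Junb* and *Atf3* are classical immediate early genes, switched on within minutes by growth factors, stress or injury through MAP kinases, and *Jund* is a more constant member. In muscle, AP-1 genes respond to contraction and damage, and in macrophages they take part in inflammatory transcription.

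Promoters of early genes can carry sites through which they are switched on, and 4 windows are shown as examples. They are those of *Fos* and *Junb*, which rose, of *Jun*, which did not pass the test, and the *Maff* start that holds a complete CRE. Each is the 150 bases before a RefSeq transcription start on GRCm38.p6, written 5′ to 3′ on the gene's own strand, with capitals marking the letters that matched a motif.
Fos (Entrez 14281, chr12:85473740-85473889, plus strand): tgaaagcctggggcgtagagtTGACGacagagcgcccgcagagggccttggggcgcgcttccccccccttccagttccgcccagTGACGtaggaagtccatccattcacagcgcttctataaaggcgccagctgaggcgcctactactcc
Junb (Entrez 16477, chr8:84978749-84978898, minus strand): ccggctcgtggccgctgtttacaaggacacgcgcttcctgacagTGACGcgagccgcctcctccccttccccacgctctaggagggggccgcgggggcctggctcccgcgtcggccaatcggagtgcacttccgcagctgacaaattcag
Jun (Entrez 16476, chr4:95052223-95052372, minus strand): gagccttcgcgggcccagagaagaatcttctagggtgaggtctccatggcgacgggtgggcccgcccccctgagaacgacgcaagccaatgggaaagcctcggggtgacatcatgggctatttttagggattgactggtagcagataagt
Maff (Entrez 17133, chr15:79347370-79347519, plus strand): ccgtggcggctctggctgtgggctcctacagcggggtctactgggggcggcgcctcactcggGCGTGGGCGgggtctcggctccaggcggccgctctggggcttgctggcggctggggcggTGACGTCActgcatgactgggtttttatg
The motifs searched were TRE (TGAGTCA), CRE (TGACGTCA), the CRE core (TGACG, which is also part of every CRE) and a site of the EGR factors (GCGTGGGCG or GCGGGGGCG), on both strands of the 250 bases before the start. *Fos* held the CRE core from -129 to -125 and again from -66 to -62, counted back from the base before the start, and *Junb* from -106 to -102. *Maff* held an EGR site from -88 to -80 and a CRE from -29 to -22, and the *Jun* window held no exact match. The run tgacatca in the *Jun* window is close to the CRE but is not counted by an exact search. Of the 9 members with an entry (11 windows, no *Fosl1*), 6 had the CRE core, 1 a complete CRE, 3 an EGR site and 0 a TRE. The CRE core was in *Fos*, *Junb*, *Maff* and *Batf*, which rose, and in *Fosb* and *Atf3*, which did not pass the test. *Fosl2* rose and had no CRE core. The EGR site was in *Maff* and *Fosl2*, which rose, and in *Fosb*, which did not pass. A link between a motif and a rise was not tested. Among all 32851 windows the shares were 17.8% for the CRE core, 1.55% for CRE, 3.06% for the EGR site and 4.46% for TRE. For *Atf3*, *Fosl2*, *Fosb* and *Batf* the 150 bases before the start overlap annotated exons of the same gene. A match is only a run of letters and no measurement of binding.

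Of the 10 AP-1 genes, 6 rose in GPR174-KO muscle and 0 fell. *Fosl1*, *Junb* and *Fos* rose most, by 9.35-fold, 2.39-fold and 2.13-fold, and *Batf*, *Maff* and *Fosl2* rose by 1.91-fold, 1.66-fold and 1.35-fold. *Jun*, *Jund*, *Fosb* and *Atf3* did not pass the test (edgeR's quasi-likelihood test, Benjamini-Hochberg adjusted p under 0.05 over all 14395 genes tested). In this comparison 27.0% of all tested genes were called higher and 27.6% lower, so a genotype difference was common in these muscles. With an absolute log2 fold change above 1 as well, the limit the study used, 3 of the 10 members were higher, against 3.45% of all tested genes. The groups did not overlap for 6 members, *Fosl1* among them, all higher in GPR174-KO muscle, against 33.1% of all tested genes. All 10 members were tested, but *Fosl1* passed the filter on low counts only through the GPR174-KO libraries. Without *Fosl1*, 5 of 9 rose, and 2 of the 9 were higher at both thresholds. The median log2 fold change of the 10 was 0.61 (0.49 without *Fosl1*), and it was 0.00 over all tested genes. No member was lower at an unadjusted p under 0.05 (0 of 10), and DESeq2 also called 0 lower.

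**Figure D1:**
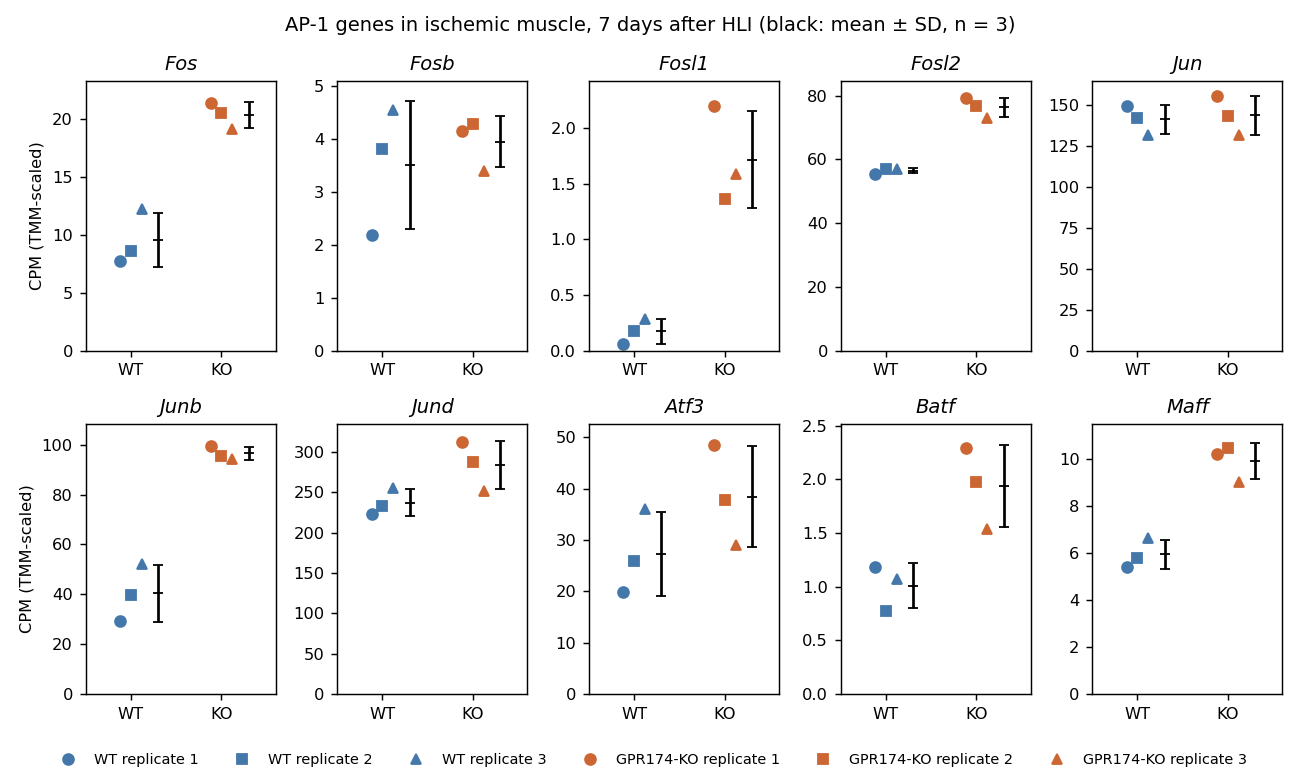
CPM (counts scaled to a common library size by edgeR's TMM method, linear axes from 0) of each AP-1 gene in the 3 WT and 3 GPR174-KO libraries, with black bars for the mean ± SD. For *Fos*, *Fosl1*, *Fosl2*, *Junb*, *Batf* and *Maff* every GPR174-KO point lies above every WT point, and for *Fosb*, *Jun*, *Jund* and *Atf3* the groups overlap.

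Total counts were 18417077 to 18695013 in the WT libraries and 19173036 to 19394469 in the GPR174-KO libraries. CPM values were scaled by TMM, which aligns the bulk of the genes between libraries. With scaling by total counts alone the median log2 fold change of all tested genes became 0.28, and 9 of the 10 AP-1 genes were called higher, against 50.7% of all tested genes. Relative to that median, *Fosl1* was at 3.21, *Junb* at 1.24, *Fos* at 1.08 and *Jun* at 0.02, close to their TMM values. At both thresholds 5 members were higher with total counts, against 7.95% of all tested genes. *Fosl1* was among both the 9 and the 5. The other cell types and the fibres of the tissue moved too. All 12 mature fibre markers were lower (summed level 114880 to 159477 CPM in WT and 49321 to 56295 CPM in GPR174-KO), and all 11 macrophage and monocyte markers were higher (1606 to 2494 CPM and 3721 to 3798 CPM). Of 10 regenerating fibre and myogenic cell markers 7 were higher (2681 to 5218 CPM and 5376 to 6180 CPM), 1 of 9 endothelial markers was higher and 8 were lower (1042 to 1218 CPM and 662 to 753 CPM), and 4 of 7 fibroblast markers were higher and 3 lower (15137 to 21582 CPM and 27548 to 30985 CPM). Only 3 of 8 neutrophil markers were abundant enough to test, 2 higher and 1 lower (22.4 to 29.0 CPM and 33.5 to 36.8 CPM). *Mmp8*, among the higher, passed the filter on low counts only through the GPR174-KO libraries, which leaves 1 higher and 1 lower without it, and *Ly6g*, which defines these cells, was at 0 in every library but 1. Of 8 T cell markers 7 were tested (16.2 to 28.7 CPM and 26.6 to 29.4 CPM), and of 5 B cell markers 2 (2.01 to 2.91 CPM and 3.03 to 3.55 CPM). edgeR called 0 of these (1 at an unadjusted p under 0.05) and DESeq2 0. The part of these cell types in the AP-1 differences was not tested, and in bulk muscle fewer cells of a type and less RNA per cell cannot be told apart.

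*Fos*, the founding member and a classical immediate early gene, had 7.78, 8.63 and 12.2 CPM in WT and 21.4, 20.5 and 19.2 CPM in GPR174-KO muscle. WT replicate 3 was the highest WT library and still lay below every GPR174-KO library. The means were 9.53 ± 2.34 and 20.3 ± 1.11 CPM (SD, n = 3), a log2 fold change of 1.09 (SE 0.16, 95% interval 0.71 to 1.46, adjusted p = 0.00205, edgeR). The estimated counts behind these levels were 125, 145 and 217 in WT and 447, 435 and 412 in GPR174-KO muscle. Without WT replicate 1 the log2 fold change of *Fos* was 0.97, under the limit of 1 but still called.

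*Fosl1* encodes Fra-1, a Fos protein that lacks the strong activation domain of Fos and is itself induced by AP-1. Its estimated counts were 1, 3 and 5 in the WT libraries and 46, 29 and 34 in the GPR174-KO libraries. Fosl1 RNA was thus near the detectable floor of 3 counts in WT muscle and well above it in each GPR174-KO muscle. The ratio of the summed counts, 9 against 109, was 9.64 after scaling by library size (95% exact interval 4.90 to 21.6, which covers counting error only). In CPM the levels were 0.174 ± 0.109 and 1.72 ± 0.432 (SD, n = 3), and the fitted log2 fold change was 3.22 (SE 0.41, adjusted p = 0.00145, edgeR). The filter of at least 10 counts in every library removes the gene, and without a filter its difference in log2(FPKM + 1) was 0.95, a scale that understates the change of a gene this low.

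*Fosl2*, which encodes Fra-2, was far more abundant and changed less, with 55.6, 57.1 and 56.9 CPM in WT and 79.1, 76.8 and 73.0 CPM in GPR174-KO muscle. The WT libraries lay within 2 CPM of each other. The log2 fold change was 0.43 (SE 0.05, 95% interval 0.32 to 0.55, adjusted p = 0.00117, edgeR). *Fosb*, an early gene known from neurons, had 2.18, 3.81 and 4.55 CPM in WT and 4.16, 4.29 and 3.40 CPM in GPR174-KO muscle. These groups overlapped, and only WT replicate 1 stood low. Its log2 fold change was 0.16 with a 95% interval from -0.44 to 0.76 (adjusted p = 0.620, edgeR), and it became -0.078 without WT replicate 1.

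**Figure D2:**
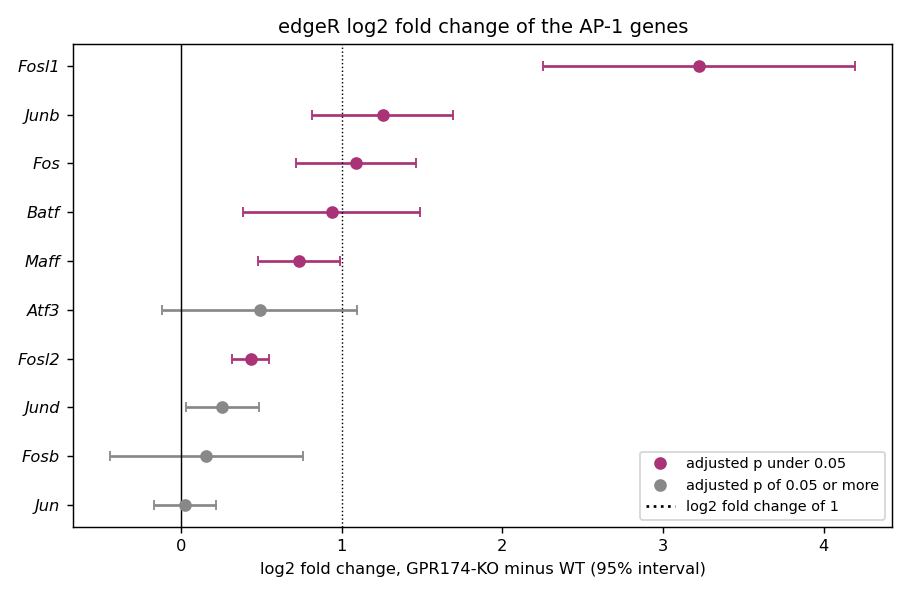
Log2 fold change of each AP-1 gene, GPR174-KO minus WT, from edgeR (points) with the 95% interval (bars), a solid line at 0 and a dotted line at 1. The intervals of *Jun*, *Fosb* and *Atf3* cross 0, and *Fosl1* has the largest value and the widest interval, 2.25 to 4.20.

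Among the Jun genes, *Junb* was the one that rose. *Junb*, which encodes a weaker activator than Jun that also restrains growth, had 29.2, 39.8 and 52.1 CPM in WT and 99.6, 95.6 and 94.4 CPM in GPR174-KO muscle. The WT libraries spread widely, with replicate 3 again the highest, and the GPR174-KO libraries lay close together. The means were 40.4 ± 11.4 and 96.5 ± 2.72 CPM (SD, n = 3), with a log2 fold change of 1.26 (SE 0.19, 95% interval 0.82 to 1.69, adjusted p = 0.00217, edgeR).

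*Jun*, the best known partner of Fos, had 149.5, 142 and 131 CPM in WT and 155, 143 and 132 CPM in GPR174-KO muscle. The ranges nearly coincided. The log2 fold change was 0.03 (SE 0.08, adjusted p = 0.809, edgeR), with a 95% interval from -0.17 to 0.22. With total counts, the same gene had a log2 fold change of 0.30 and was called (adjusted p = 0.00576, edgeR), close to the 0.28 of the median gene. *Jund*, the most abundant member, had 223, 233 and 255 CPM in WT and 312, 287 and 252 CPM in GPR174-KO muscle. GPR174-KO replicate 3 lay within the WT range and the other two GPR174-KO libraries above it. Its log2 fold change of 0.26 (SE 0.10, 95% interval 0.03 to 0.48) missed the threshold (adjusted p = 0.0556, unadjusted p = 0.0311, edgeR), and it passed in 8 of 18 alternative settings.

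*Atf3*, a stress-induced factor that often represses its targets, had 19.8, 26.0 and 36.1 CPM in WT and 48.6, 37.7 and 29.0 CPM in GPR174-KO muscle. The WT replicate 3 and GPR174-KO replicate 3 values crossed, so the groups overlapped. The log2 fold change of 0.49 (SE 0.25, 95% interval -0.12 to 1.09) was not past the threshold (adjusted p = 0.144, edgeR). *Batf*, which pairs with Jun proteins in lymphocytes and other immune cells, was scarce, with 1.18, 0.774 and 1.07 CPM in WT and 2.29, 1.98 and 1.53 CPM in GPR174-KO muscle. The groups stood apart, although the counts behind them were only 13 to 19 and 33 to 48. Its log2 fold change was 0.94 (SE 0.23, 95% interval 0.38 to 1.49, adjusted p = 0.0137, edgeR). The adjusted p of *Batf* was 0.0545 without WT replicate 2 and 0.0502 without GPR174-KO replicate 2.

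*Maff* encodes a small Maf protein, which has a bZIP but no activation domain of its own. It had 5.41, 5.77 and 6.63 CPM in WT and 10.2, 10.5 and 9.02 CPM in GPR174-KO muscle. Both groups were tight and did not overlap. The log2 fold change was 0.73 (SE 0.11, 95% interval 0.48 to 0.99, adjusted p = 0.00216, edgeR).

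Levels of different genes were compared in TPM (transcripts of a gene among all transcripts), which the authors scaled for transcript length and library total. In every library the Jun genes made up most of the AP-1 RNA, with a summed level of 233 to 290 TPM in WT and 426 to 467 TPM in GPR174-KO muscle, whereas the 4 Fos genes summed to 22.8 to 30.8 and 55.1 to 57.4 TPM. *Jund* had the highest level in all 6 libraries, and *Atf3* at rank 4, *Fosl2* at 5, *Fos* at 6 and *Maff* at 7 also kept their places. *Jun* and *Junb* exchanged theirs. *Jun* was at rank 2 and *Junb* at 3 in every WT library (75.45 to 77.70 and 26.63 to 52.37 TPM), and *Junb* was at rank 2 and *Jun* at 3 in every GPR174-KO library (119 to 122 and 97.5 to 108 TPM). *Batf* and *Fosb* were neighbours in WT muscle whose ranges overlapped (1.54 to 2.25 and 0.98 to 2.23 TPM), as did *Fosb* and *Fosl1* in GPR174-KO muscle (2.13 to 2.57 and 1.84 to 2.86 TPM). In WT muscle *Fosl1* was the lowest member, at 0.07 to 0.29 TPM. This scale follows library totals. On it *Jun*, which did not differ with TMM, was higher in each GPR174-KO library than in each WT library. With total counts the median log2 fold change of all tested genes was 0.28, and 50.7% of them were called higher. The share of all genes that separate so in TPM was not counted, so no rise of a member is read from this scale.

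**Figure D3:**
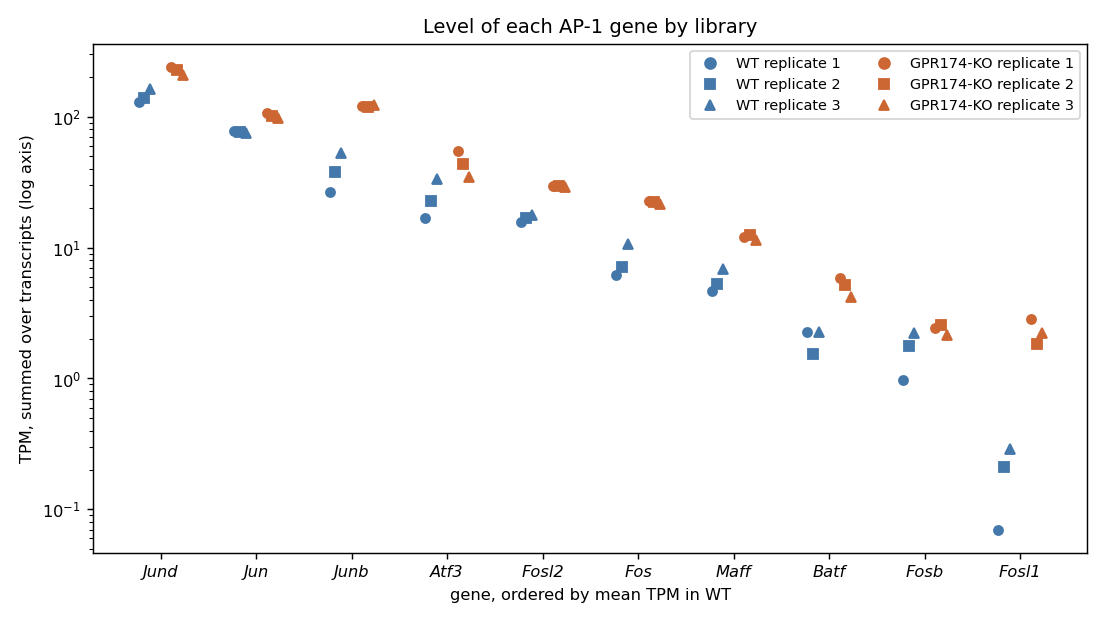
TPM of each AP-1 gene (log axis) by library, genes ordered by their mean in WT. *Junb* lies below *Jun* in the 3 WT libraries and above it in the 3 GPR174-KO libraries, and *Fosl1* moves from the lowest level to that of *Fosb*.

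As a share of the summed TPM of the 10 genes, *Junb* made up 9.53% to 14.4% in the WT libraries and 20.2% to 23.0% in the GPR174-KO libraries. *Jund* went from 45.3 ± 0.722% in WT to 39.7 ± 0.710% in GPR174-KO muscle (SD, n = 3) and *Jun* from 24.5 ± 3.55% to 18.1 ± 0.174%. The make-up of AP-1 RNA thus held more *Junb* and less *Jun* and *Jund*. *Fos* made up 2.48 ± 0.395% and 3.92 ± 0.145%, and *Fosl1* 0.0575% and 0.408%. *Fosl2* held nearly the same share, 5.27% in WT and 5.21% in GPR174-KO muscle. These shares have no test, and a share must fall where another rises.

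A ratio of 2 genes within a library does not depend on how libraries are scaled. The 7 ratios given here were chosen after the values had been seen. *Junb* to *Jun* was 0.343, 0.491 and 0.694 in WT and 1.12, 1.17 and 1.25 in GPR174-KO muscle, 2.42-fold higher. *Junb* to *Jund* was 0.207, 0.270 and 0.322 in WT and 0.505, 0.526 and 0.592 in GPR174-KO muscle, 2.06-fold higher. Both ratios separated the groups completely. Within the Fos family, *Fos* to *Fosl2* was 1.61-fold higher (0.395 to 0.605 and 0.741 to 0.762), *Fosl1* to *Fos* 4.92-fold higher (0.0114 to 0.0295 and 0.0829 to 0.127) and *Fosl1* to *Fosl2* 7.92-fold higher. *Fosb* to *Fos* was lower, at 0.159, 0.248 and 0.209 in WT and 0.109, 0.116 and 0.0987 in GPR174-KO muscle, a fold of 0.532. In these 6 libraries the ratios among Fos family genes did not overlap between the groups. The *Fosl1* ratios rest on 1, 3 and 5 counts in the WT libraries, and *Fosl1* passed the filter only through the GPR174-KO libraries. Ratios that share a gene are not independent, and *Fosl1* to *Fosl2* is the product of *Fosl1* to *Fos* and *Fos* to *Fosl2*. Each of these 6 ratios had a 2-sided exact permutation p of 0.1, the smallest that 3 libraries against 3 can give (0.117 after Benjamini-Hochberg adjustment over the 7), so none could pass 0.05. *Jun* to *Jund* overlapped between groups (0.464 to 0.603 and 0.450 to 0.472, exact permutation p = 0.2).

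**Figure D4:**
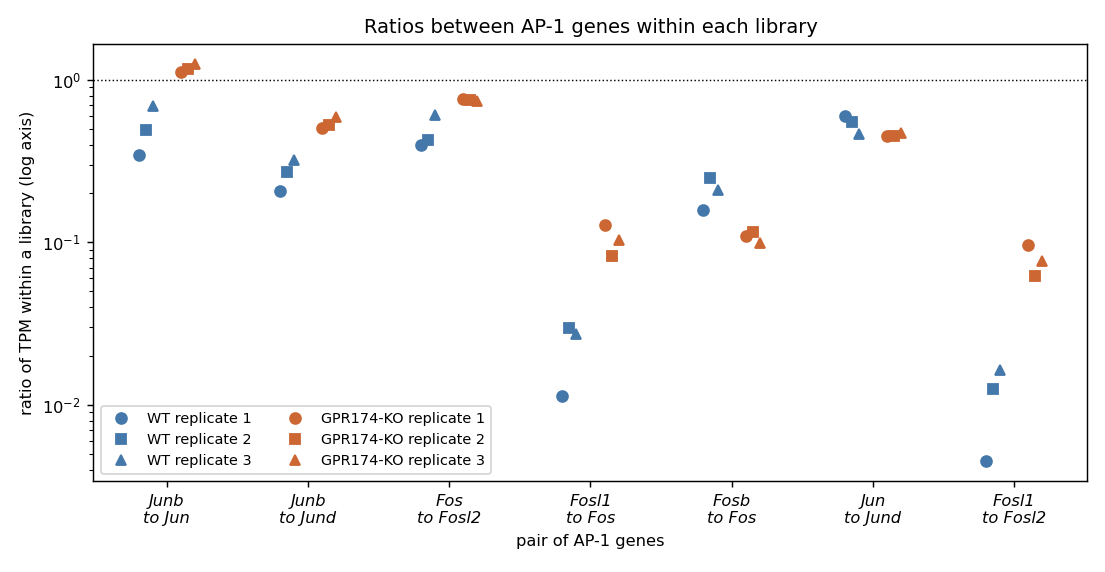
Ratio of TPM of 2 AP-1 genes within each library (log axis, dotted line at 1), for the 3 WT and 3 GPR174-KO libraries. *Junb* to *Jun* is under 1 in every WT library and above 1 in every GPR174-KO library, and *Jun* to *Jund* overlaps.

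The other members than *Fosb*, *Maff* and *Jund* were listed with 1 transcript each, so their counts have no split between forms. *Fosb* had 3, and the split between them differed from library to library. Its form NM_008036.2 had 0, 39.24 and 53.24 estimated counts in WT and 0, 91.00 and 63.72 in GPR174-KO muscle. XM_006539543.3 had 13.56 and 72.68 counts in replicate 1 of the 2 groups, and 0 in the other libraries. The 2 forms thus never had counts in the same library. NM_001347586.1 took 61.3%, 38.7% and 34.3% of *Fosb* counts in WT and 16.5%, 0% and 12.7% in GPR174-KO muscle. *Maff* had 7 forms, and NM_010755.4 took 68.6%, 54.3% and 7.2% of its counts in WT and 46.7%, 55.4% and 47.1% in GPR174-KO muscle. In WT replicate 3 most *Maff* counts (83.0%) were on XM_006520550.4 instead. *Jund* had 2 forms with exactly equal counts in each library. Splits between forms are estimates of the authors' program and were given no test, and the gene sums used for the comparisons do not depend on them.

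Other bZIP proteins compete for the same partners and sites, and 22 of them were listed and tested. Of these, 8 rose and 8 fell (median log2 fold change 0.04), where 27.0% of all tested genes rose and 27.6% fell. *Nfe2l2*, which encodes the antioxidant regulator NRF2, had 78.9 to 82.4 CPM in WT and 107 to 108 CPM in GPR174-KO muscle (log2 fold change 0.41, SE 0.04, adjusted p = 0.00103, edgeR), and *Bach1*, its repressive counterpart, rose by 0.81 on the log2 scale (SE 0.09, adjusted p = 0.00120). *Ddit3* (CHOP), a stress-response factor, fell by 0.50 and *Crem*, a cyclic AMP responsive factor, fell by 0.59 on the log2 scale. These genes moved both ways, and with total counts 12 were called higher and 2 lower, where 50.7% of all tested genes were called higher.

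Upstream of AP-1, MAP kinases phosphorylate its proteins and the SRF and ELK factors that bind early gene promoters, and DUSP phosphatases switch the kinases off. Of 35 listed genes 33 were tested, with 5 higher and 13 lower (median log2 fold change -0.16). With total counts the median was 0.11, with 13 higher and 4 lower. Over all tested genes 27.0% were higher and 27.6% lower, and 50.7% were higher with total counts. *Mapk12*, the p38 isoform typical of skeletal muscle, had 96.2 to 120 CPM in WT and 49.8 to 53.7 CPM in GPR174-KO muscle (log2 fold change -1.08, SE 0.09, adjusted p = 0.000638, edgeR). Mature fibre markers were lower in the same libraries, as given above, and a link to *Mapk12* was not tested. *Dusp1*, itself an early gene, had 97.2 to 103.5 CPM in WT and 51.5 to 63.5 CPM in GPR174-KO muscle (log2 fold change -0.82, SE 0.08, adjusted p = 0.000871, edgeR). *Dusp2* and *Dusp4*, phosphatases found in the nucleus, rose by 1.10 (SE 0.20) and 0.85 (SE 0.12) on the log2 scale. RNA levels say nothing of kinase activity.

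Of 25 textbook AP-1 target genes 22 were tested, 16 rose and 1 fell, with 12 of the 16 past both thresholds. Over all tested genes 27.0% were called higher and 27.6% lower, and 3.45% were higher past both thresholds. *Il6* passed the filter only through the GPR174-KO libraries, and without it 15 of 21 rose, 11 of them past both thresholds. The median log2 fold change was 1.08, and 1.06 without *Il6*. *Lif*, a cytokine of muscle repair, had 0.833 to 1.18 CPM in WT and 3.02 to 3.49 CPM in GPR174-KO muscle (log2 fold change 1.75, SE 0.17, adjusted p = 0.000829, edgeR), and *Plaur*, the urokinase receptor, had 9.33 to 12.5 and 20.6 to 23.6 CPM (log2 fold change 1.06, SE 0.12, adjusted p = 0.00112). *Vegfa*, the main angiogenic growth factor, was the one that fell, from 157 to 204 CPM in WT to 73.7 to 86.7 CPM in GPR174-KO muscle (log2 fold change -1.18, SE 0.11, adjusted p = 0.000778). Several of these targets are also macrophage genes, and macrophage markers were higher in the same libraries. The part of macrophages in the level of the targets was not tested. Some of the targets were already known to differ here when the list was written.

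Not all immediate early genes moved as *Fos* and *Junb* did. Of 20 tested early genes outside AP-1, 6 rose and 5 fell (median log2 fold change 0.18). Over all tested genes 27.0% rose and 27.6% fell, so these early genes moved about as often as genes in general. Of the 10 AP-1 genes 6 rose and 0 fell, and without *Fosl1* 5 and 0 of 9. The difference between the early genes and the AP-1 genes was not tested. *Egr3* and *Egr1*, zinc finger factors of the same early wave, rose by 1.29 (SE 0.08, adjusted p = 0.000374, edgeR) and 0.97 (SE 0.07, adjusted p = 0.000477) on the log2 scale. *Klf2* and *Klf4*, factors typical of quiescent endothelium, fell by 0.92 (SE 0.06) and 0.97 (SE 0.07), both with an adjusted p of 0.000477 (edgeR). In the same libraries 8 of 9 endothelial markers were lower, and a link to these falls was not tested. With total counts 12 of the 20 early genes were called higher and 4 lower, where 50.7% of all tested genes were called higher.

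The genes whose level moved most like a member over the 6 libraries were found by the root mean square distance between centred log2 CPM profiles, among 14394 genes. For *Fos* they were *Basp1* (0.0400) and *Snai1* (0.0536), for *Fosl2* *Copg1* (0.0191) and *Pdik1l* (0.0205), and for *Fosl1* *Prokr2* (0.251) and *Tubb3* (0.254). The distances for *Fosl1* were several times those of the others.

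The calls of *Fos*, *Fosl1*, *Fosl2*, *Junb* and *Maff* held with any 1 library left out. A fit of replicates 1 and 3 alone, without replicate 2 of either group, called 0 of the 10 members and 0 of all genes, at a smallest edgeR adjusted p of 0.0542. In that fit 5 members, *Fosl1* among them, had an unadjusted p under 0.05, as did 5026 of all 14447 genes tested in it. Replicate 2 lay between replicates 1 and 3 for 8 of the 10 members in WT and 7 of 10 in GPR174-KO muscle, and for 82.5% and 74.1% of 5639 abundant genes.

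**Figure D5:**
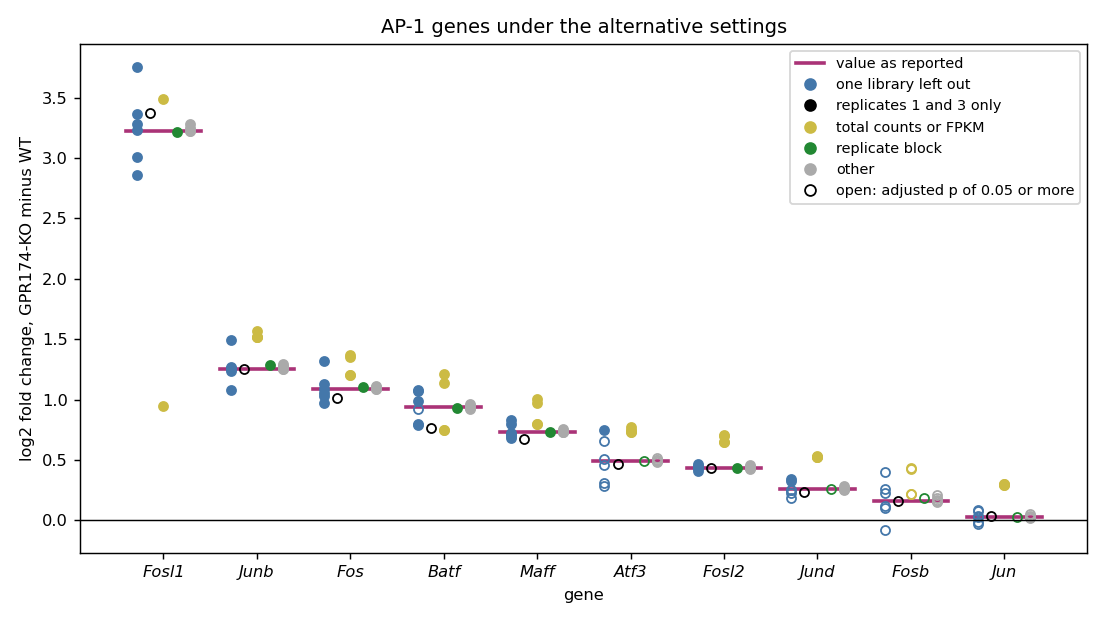
Log2 fold change of each AP-1 gene, GPR174-KO minus WT, as reported (bars) and under each alternative setting (points), with open points for an adjusted p of 0.05 or more. *Fosl1* is the highest in each setting that gave it a value but log2(FPKM + 1), where it is at 0.95, and *Jun* and *Fosb* scatter around or just above 0.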

How the data were processed

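The authors deposited, for 58843 RefSeq transcripts in 6 libraries sequenced on the BGISEQ platform the methods name, expected counts (estimated reads, not normalized), with FPKM and TPM, both scaled for length and library size. The submitters' processing notes name HISAT2 2.0.4, Bowtie2 2.2.5, RSEM 1.2.12 and GRCm39, and strand use is not given in the sources used here. Groups and replicate numbers came from the sample titles. The libraries are taken as separate mice, as the methods say, and p-values are meant to measure the spread between 3 mice a group. That holds only if the libraries are independent, and otherwise the SEs and p-values would be too small. Replicate 2 lay between replicates 1 and 3 for most abundant genes in both groups, as given above, and why was not tested.

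Expected counts were summed per Entrez gene and rounded (18089 genes, 99.7% with a symbol). edgeR 4.0.16 (TMM, filter on low counts at about 0.528 CPM, robust quasi-likelihood test) in R 4.3.3 compared the groups over 14395 genes with Benjamini-Hochberg adjustment. The study's program, DEGseq, was not used. The biological coefficient of variation was 0.0983, with a median of 2.84 prior degrees of freedom. The value of *Gpr174* in the fit without the filter was a log2 fold change of -3.76 (SE 0.99, adjusted p = 0.0176). TPM served only to compare levels between genes and FPKM only for alternatives. The test was run on data simulated with a dispersion common to all genes and few changed genes. It found 43 of 57 genes changed 1.5-fold, 66 of 69 changed 2-fold and 74 of 74 changed 4-fold, with 16 false calls. Far more genes differed in the real data, so the simulation cannot give the error rate there. Promoters came from RefSeq on GRCm38.p6, another build than that of the counts.

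The AP-1 members and the other gene lists were chosen with earlier results of these data known. Named in the text are all members, and of each other list at most 2 genes in each direction with the lowest p among those called, and for the 3 members of lowest p the 2 genes of nearest profile. *Ly6g*, *Mmp8* and *Il6* were named after their values were seen. Alternatives were DESeq2 1.42.0 (size factors, Wald test), upper-quartile and total-count scaling, limma 3.58.1 (voom, and log2 FPKM with a pseudocount of 1 or 0.1 where 3 libraries reached an FPKM of 1, or unfiltered), no filter or at least 10 counts in every library, a replicate block, leaving out each library, and replicates 1 and 3 alone. Ratios used exact permutation tests in scipy 1.17.1 (Python 3.11.15). Intervals of counts and the floor of 3 counts cover counting error only.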

Additional observations from a re-analysis of the deposited data

How the results depend on the processing

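The number of AP-1 genes called higher was 6 as reported, 5 to 8 with 1 library left out, 9 with total counts and 0 with replicates 1 and 3 alone. Over all tested genes 3891 of 14395 were called higher as reported, 7303 of 14395 with total counts and 0 with replicates 1 and 3 alone. With 1 library left out this ran from 2651 of 14558 (without WT replicate 2) to 4626 of 14587 (without WT replicate 3). *Fosl1* is in each of these member counts but that of replicates 1 and 3 alone. At both thresholds the number of AP-1 genes was 3, and 3 to 4 with 1 library left out, 5 with total counts and 0 with replicates 1 and 3 alone. Of all tested genes 3.45% were higher past both as reported and 7.95% with total counts. That share was not counted with a library left out. The number of AP-1 genes called lower was 0 in all of these settings, including 0 with each library left out. Over all tested genes 3972 were called lower as reported, 2806 to 4539 with 1 library left out and 2010 with total counts. With 1 library left out the log2 fold change of *Fosb* ranged from -0.078 (without WT replicate 1) to 0.40 and that of *Jun* from -0.035 (without GPR174-KO replicate 1, and -0.016 without WT replicate 3) to 0.084, none of them called, and the cause of the turns was not tested. *Jund* and *Atf3* were called without WT replicate 3 (adjusted p = 0.0115 and 0.0481, edgeR), and *Jund* also without GPR174-KO replicate 3 (0.0281). *Fosl1* had no value with at least 10 counts required in every library or with the FPKM filter, since those filters removed it. A fit with the replicate block called 6 members higher, 3 at both thresholds and 0 lower, and changed no call of a member. It called 3305 of all 14395 tested genes higher and 3507 lower. Same-numbered libraries did not deviate together (correlations 0.0154, -0.0386 and -0.000532 over 5639 genes), so there was no sign that the numbers pair the mice. A weak shared effect could go unseen in this check. With replicates 1 and 3 alone 5026 genes had an unadjusted p under 0.05 and 0 were called. The precision of *Fosl1* and *Batf* is limited by their counts in WT muscle, 9 in all for *Fosl1* and 13 to 19 a library for *Batf*.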

Other observations

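The *Maff* form NM_001304831.1 had the same estimated count, 11.55, in all 6 libraries, 1 of only 2 transcripts of the whole table with an equal count above 0 in each. Among bZIP genes outside the listed members, *Jdp2*, which encodes a partner and repressor of Jun, had 18.2 to 22.0 CPM in WT and 31.4 to 32.8 CPM in GPR174-KO muscle. *Jdp2* was picked after its values had been seen.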
